A study of Homo sapiens with 48 samples.

Results

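LCN2, the chemokine genes CXCL1, CXCL2, CXCL3, CXCL8 and CCL20, and the adhesion gene ICAM1 form a set of 7 genes known for their part in epithelial inflammation. LCN2 and ICAM1, 2 of the 7, had a row in the table of ribosome-protected fragments (RPFs, 11145 genes) and in the table of total cytoplasmic RNA (11947 genes), and 10836 genes were in both tables. CXCL1, CXCL2, CXCL3, CXCL8 and CCL20 are not analysed here. The set was chosen on the measured footprint responses to eIF2B knockdown, where LCN2 ranked first. The values of LCN2 and ICAM1 in those responses, and in the levels they are built from, are therefore given as a description, with standard errors and without a test.

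The libraries come from SW480, a human CRC cell line with a mutated APC gene. Each line carried a DOX-inducible shRNA, introduced by lentiviral transduction, and pools of selected cells were used. The 3 lines were shCTRL with a non-targeting shRNA, shEIF2B1 against the mRNA of eIF2Bα, and shEIF2B4 against the mRNA of eIF2Bδ. Cells were kept for 5 days with 1 µg/ml DOX (+DOX) or with DMSO alone (-DOX), in 4 replicates run in separate weeks, which gave 6 groups. Each of the 24 lysates gave 1 RPF library and 1 total RNA library, 48 in all. Values are regularized log2 values without read counts, so the depth behind them is unknown, and regularization pulls weakly expressed genes towards their mean. A response is the change from -DOX to +DOX in a knockdown line minus the same change in shCTRL, in log2 units, and log2 TE (translational efficiency) is the log2 RPF value minus the log2 total RNA value of a lysate. Genes were called at a limma adjusted p under 0.1, which rests on the spread between the weekly replicates of these 3 cell pools.

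eIF2B is the exchange factor that reloads eIF2 with GTP, and its limitation activates the integrated stress response, in which ATF4 and DDIT3 (CHOP) are made. LCN2 encodes lipocalin 2, a secreted protein that binds bacterial iron carriers and is made by intestinal epithelium during inflammation. CXCL1, CXCL2, CXCL3 and CXCL8 attract neutrophils through CXCR2, CCL20 attracts cells that carry CCR6, and ICAM1 is the membrane ligand of leukocyte integrins such as LFA-1. All of these genes are textbook targets of the transcription factor NF-κB, which binds κB sites in their promoters.

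LCN2 (ENSG00000148346.12, transcript ENST00000277480.7 in the deposited tables) spans bases 128149071 to 128153455 of chromosome 9 (GRCh38, plus strand) in GENCODE v29. ICAM1 (ENSG00000090339.9, transcript ENST00000264832.8) lies on chromosome 19 from 10270835 to 10286615, also on the plus strand, and both transcripts have 7 exons. In the promoter windows of RefSeq (GRCh38.p14, from upstream of each gene start to shortly after it) each gene held 1 match to GGANNNTCC, a pair of κB half-sites that reads the same on both strands. These stretches are shown because they are what the promoters of both genes share, with the match in capitals, 5′ to 3′ on the plus strand.
LCN2, chr9:128149268-128149296: cagcactccgGGAATGTCCctcactctcc
ICAM1, chr19:10270924-10270952: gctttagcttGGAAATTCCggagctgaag
The match began at -175 from the RefSeq start of LCN2 and at -186 from that of ICAM1. The LCN2 stretch lay before the start of its GENCODE v29 transcript at 128149453, whereas the ICAM1 stretch lay inside the first exon of its GENCODE v29 transcript, which starts at 10270835, and before the coding sequence. The letters were chosen after these sequences were seen, and 9.32% of 35116 promoter windows held them. A κB consensus of 10 letters, held by 11.3% of windows on either strand, was found in LCN2 at the same place and not in ICAM1. The AP-1 motif TGANTCA, held by 7.71% of windows on either strand, was found in LCN2 at -52, and the C/EBP-ATF motif TGATGNAAT, held by 0.991%, was found in neither window. A match is a description of letters and not of binding.

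The targeted RNAs were lower in the lines that target them, also before induction. In -DOX libraries, mean log2 total RNA of EIF2B1 was 8.26 in shEIF2B1 and 8.55 in shCTRL. That of EIF2B4 was 7.18 in shEIF2B4 and 7.44 in shCTRL. In RPFs these means were 8.35 against 8.80 for EIF2B1 and 7.77 against 8.19 for EIF2B4. Single libraries overlapped for EIF2B4 only. Uninduced knockdown lines thus began with less target RNA than shCTRL, and why was not tested. EIF2B1 RNA fell after shEIF2B1 (response -0.67, standard error 0.15, limma adjusted p = 0.0263) and EIF2B4 RNA after shEIF2B4 (-0.49, standard error 0.14, limma adjusted p = 0.0634). The EIF2B1 call was lost without week 3 or 4 (limma adjusted p = 0.139 and 0.242) and that of EIF2B4 without week 2, 3 or 4 (0.169, 0.161 and 0.262). In RPFs EIF2B1 fell after shEIF2B1 (-0.53, standard error 0.13, limma adjusted p = 0.0109, and 0.109 without week 4). EIF2B4 was not called in RPFs after shEIF2B4 (-0.48, standard error 0.19, limma adjusted p = 0.236). The epithelial keratin genes KRT8, KRT18 and KRT19 had mean log2 RPF values of 11.9 to 14.7 in every group, and EPCAM of 10.2 to 11.4. E-cadherin (CDH1) was low in uninduced shCTRL, at 4.26 ± 0.22 (SD, n = 4), and 6 of the 12 epithelial markers had a row. CDH1 rose after shEIF2B4 by 1.20 in RPFs (limma adjusted p = 0.0111, and 0.258 without week 4), and was the only one of the 6 called in an RPF response. In total RNA CDH1 was called after shEIF2B1 (0.36, limma adjusted p = 0.0830), and CDH1 (0.56, limma adjusted p = 0.00408) and EPCAM (0.44, limma adjusted p = 0.0997) after shEIF2B4. The shEIF2B1 call of CDH1 was lost without any 1 week (from 0.145 to 0.370) and that of EPCAM without week 1, 2 or 4 (0.217, 0.232 and 0.339). Whether this bears on the LCN2 values was not tested. Of 12 markers of immune, stromal and endothelial cells 3 had an RPF row (CD4, CD14 and CD68), with group means from 3.93 to 6.40. None of those 3 was called in an RPF response, and none had an unadjusted p under 0.05.

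LCN2 footprints stood at a much higher level in both induced knockdown groups than in the other 4 groups. In shCTRL -DOX its log2 RPF values were 7.17, 6.44, 6.66 and 6.14 in weeks 1 to 4. In shEIF2B1 -DOX they were 6.87, 6.03, 6.37 and 6.21, and in shEIF2B4 -DOX 7.11, 6.37, 6.47 and 6.53. The 3 uninduced groups thus lay over each other. Induction brought shCTRL to 6.75, 7.69, 7.49 and 6.96, higher in weeks 2 to 4 and lower in week 1. Induced shEIF2B1 gave 10.68, 11.08, 10.39 and 11.32, and induced shEIF2B4 gave 11.33, 11.38, 11.49 and 11.52. Both knockdown groups lay above every library of the other 4 groups, and the induced shEIF2B4 libraries lay above those of induced shEIF2B1, with 11.33 and 11.32 as the closest pair. The gap in means between the highest of those other 4 groups, shCTRL +DOX at 7.22 ± 0.44, and shEIF2B1 +DOX at 10.87 ± 0.42 (SD, n = 4 each) was far wider than either spread. In shEIF2B4 +DOX the mean was 11.43 ± 0.088 (SD, n = 4), the narrowest of the 6 groups.

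**Figure D1:**
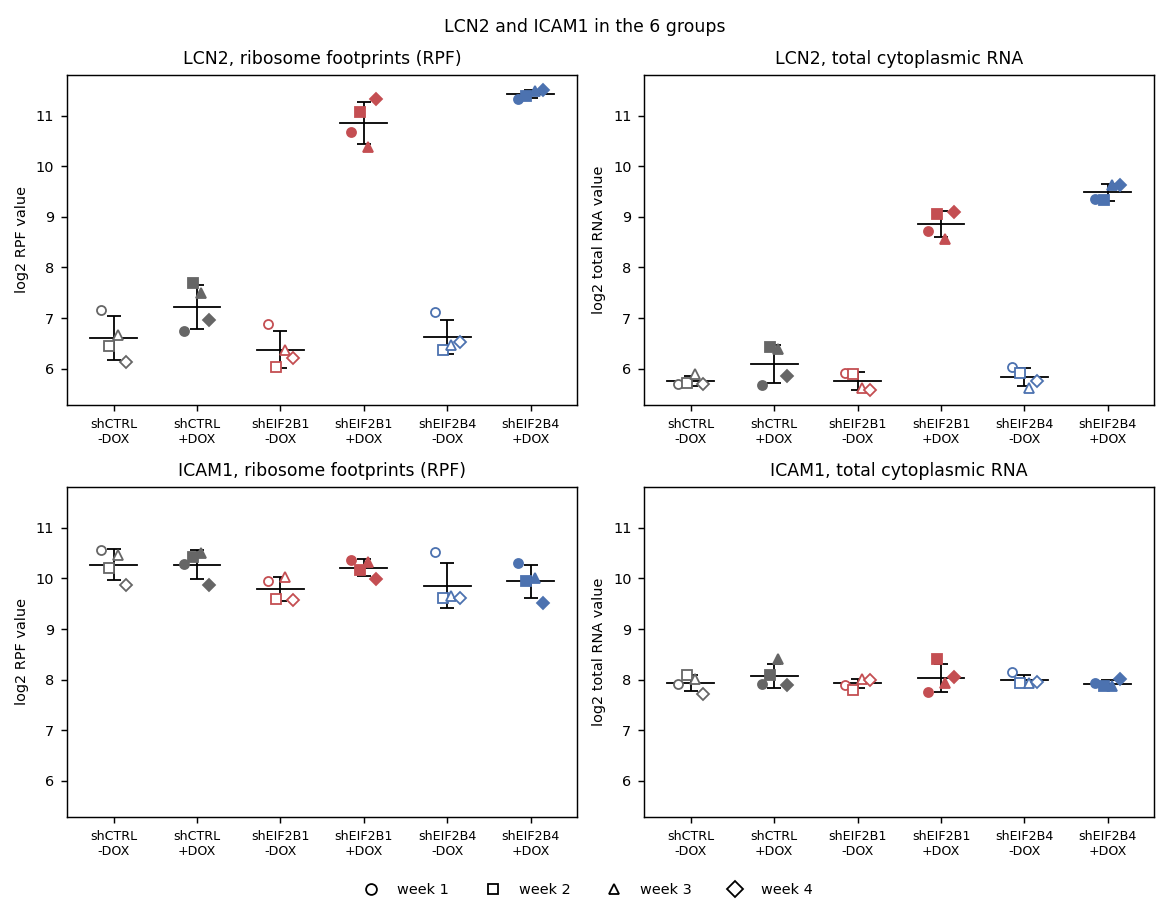
Log2 RPF values (left) and log2 total RNA values (right) of LCN2 (top) and ICAM1 (bottom) in the 6 groups, 1 marker per library with its shape giving the week, open for -DOX and filled for +DOX. Lines and bars are the mean ± SD (n = 4). LCN2 stands near 6 to 8 in RPFs in 4 groups and above 10 in both induced knockdown groups, whereas all groups of ICAM1 overlap with their neighbours.

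Total LCN2 RNA followed the same order at lower values. It was 5.70, 5.72, 5.89 and 5.69 in shCTRL -DOX and 5.68, 6.43, 6.38 and 5.86 in shCTRL +DOX. Uninduced shEIF2B1 gave 5.91, 5.90, 5.62 and 5.58, and uninduced shEIF2B4 gave 6.03, 5.92, 5.62 and 5.74. On induction shEIF2B1 reached 8.73, 9.05, 8.56 and 9.09, and shEIF2B4 reached 9.36, 9.33, 9.63 and 9.62. As in RPFs, the induced knockdown groups did not overlap with any other group or with each other. In such bulk lysates, more RNA per cell and more cells that express the gene cannot be told apart.

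The LCN2 response in RPFs was 3.88 (standard error 0.33) to shEIF2B1 and 4.19 (standard error 0.29) to shEIF2B4. On the regularized scale these are 14.7-fold and 18.3-fold. Both were the highest of all 11145 genes, which is what the set was chosen for, and they were positive in 4 of 4 weeks, from 3.19 to 4.30 and from 3.77 to 4.64. The genes next in rank were LAMP3, a lysosomal membrane protein (2.93 and 2.83), and SLC26A4, an anion transporter (2.49 and 2.42). They were followed by TNFRSF9, the receptor 4-1BB, after shEIF2B1 (2.11) and by SLPI, a secreted protease inhibitor, after shEIF2B4 (2.26). In total RNA the LCN2 response was 2.77 (standard error 0.20, 6.82-fold) to shEIF2B1, second to LAMP3 at 2.87, and 3.32 (standard error 0.19, 10.01-fold) to shEIF2B4, the highest of 11947 genes.

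The RPF response of LCN2 was larger than its total RNA response in every week of both lines. Its log2 TE was 0.85 ± 0.43 in shCTRL -DOX, 1.13 ± 0.083 in shCTRL +DOX, 0.62 ± 0.35 in shEIF2B1 -DOX and 0.79 ± 0.26 in shEIF2B4 -DOX (SD, n = 4 each). After induction it was 2.01 ± 0.17 in shEIF2B1 and 1.94 ± 0.086 in shEIF2B4 (SD, n = 4 each), and these 2 groups overlapped with each other and with no other group. The TE response was 1.11 (standard error 0.22) to shEIF2B1, the highest of 10836 genes, and 0.87 (standard error 0.21) to shEIF2B4, at place 15. It ran from 0.74 to 1.38 and from 0.45 to 1.28 over the weeks. Over all genes, 7.1% were called in log2 TE after shEIF2B1 and 0.0923% after shEIF2B4. Without week 1 the TE response of LCN2 was 1.02 after shEIF2B1 and 0.73 after shEIF2B4. Leaving out any 1 week put LCN2 at place 2 to 5 after shEIF2B1 and at place 10 to 80 after shEIF2B4. RPFs and total RNA were regularized separately, and their unequal shrinkage of a weakly expressed gene can enter this difference, which was not tested.

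**Figure D2:**
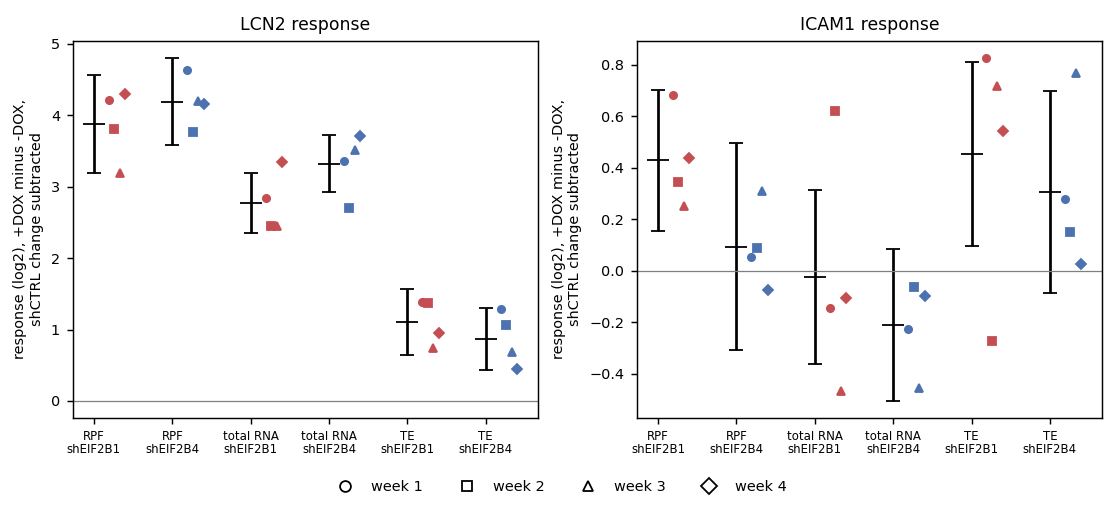
Responses of LCN2 (left) and ICAM1 (right) in RPFs, total RNA and TE to each knockdown, in log2 units on different vertical scales. Black marks and bars are the limma estimate with its 95% interval, and coloured markers are the single weeks (n = 4). LCN2 lies above 0 in every week of all 6 columns, and ICAM1 does so only in RPFs after shEIF2B1 and in TE after shEIF2B4.

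**Figure D3:**
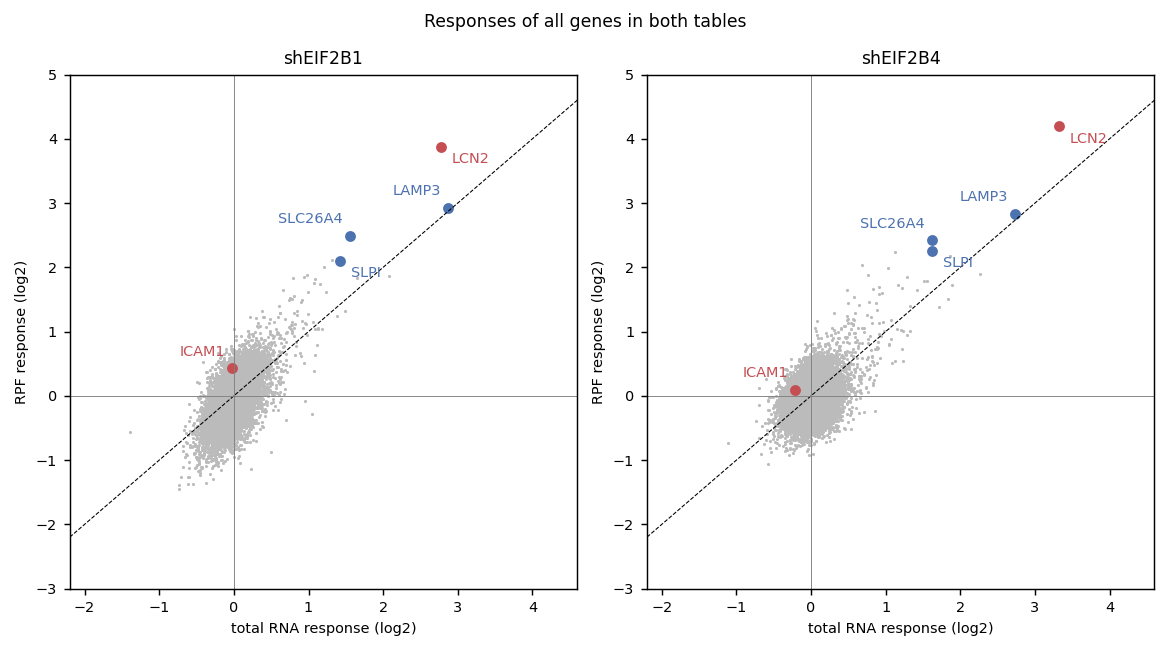
RPF response against total RNA response, both in log2, with 1 grey point for every gene of the 10836 that both tables hold, after shEIF2B1 (left) and shEIF2B4 (right), with the dashed line where both are equal. LCN2 lies at 2.77 and 3.88 on the left and at 3.32 and 4.19 on the right, above the line and higher than any other gene, whereas ICAM1 lies within the cloud. Blue points are LAMP3, SLC26A4 and SLPI.

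The difference of both responses, shEIF2B1 minus shEIF2B4, comes from the libraries whose values chose the genes and is given without a test. For LCN2 it was -0.31 (standard error 0.32) in RPFs and -0.55 (standard error 0.20) in total RNA. For ICAM1 it was 0.34 (standard error 0.18) in RPFs and 0.19 (standard error 0.16) in total RNA. Over all genes this contrast called 0.00897% in RPFs and 0.1% in total RNA.

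LCN2 also differed between induced and uninduced libraries of the line without a targeted gene. On induction of shCTRL the difference was 0.62 (standard error 0.20) in RPFs and 0.34 (standard error 0.11) in total RNA, and it was 1.24, 0.83 and 0.82 in weeks 2 to 4 but -0.42 in week 1 in RPFs. Over all genes, 9.85% were called in this RPF comparison and 4.44% in total RNA. Without week 2 the RPF value of LCN2 was 0.41 and without week 1 it was 0.96. Induced knockdown lines set against induced shCTRL, an alternative chosen after the data were seen, gave LCN2 differences of 3.65 (standard error 0.14) for shEIF2B1 and 4.21 (standard error 0.13) for shEIF2B4 in RPFs, and 2.77 and 3.40 in total RNA. In the uninduced lines LCN2 differed from shCTRL by -0.23 (standard error 0.10), lower in 3 of 4 weeks, and by 0.020 in RPFs, and by -0.00072 and 0.077 in total RNA, for shEIF2B1 and shEIF2B4.

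ICAM1 footprints spanned log2 values of 9.52 to 10.56 over all 24 libraries and moved little between groups. Its log2 RPF values in weeks 1 to 4 were 10.56, 10.20, 10.46 and 9.88 in shCTRL -DOX and 10.30, 10.43, 10.50 and 9.86 in shCTRL +DOX. In shEIF2B1 they were 9.95, 9.59, 10.04 and 9.57 without DOX and 10.38, 10.17, 10.33 and 9.99 with it. In shEIF2B4 they were 10.52, 9.62, 9.66 and 9.61 without DOX and 10.32, 9.94, 10.01 and 9.52 with it. The order of the group means ran from shEIF2B1 -DOX at 9.79 ± 0.24 to shCTRL -DOX at 10.27 ± 0.30 (SD, n = 4 each), and no group stood apart from its neighbour in that order. Total ICAM1 RNA spanned 7.72 to 8.42 over all 24 libraries, with group means from 7.92 to 8.08. Per kilobase of coding sequence, mean log2 RPF values were 9.11 to 9.60 for ICAM1 in the 6 groups. Those of LCN2 were 11.62 and 12.18 in the induced knockdown groups and 7.12 to 7.97 in the others. On this scale LCN2 lay below ICAM1 in 4 groups and above it in both induced knockdown groups.

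The ICAM1 response in RPFs was 0.43 (standard error 0.13, 1.35-fold) to shEIF2B1, positive in 4 of 4 weeks, at rank 956 of 11145. After shEIF2B4 it was 0.094 (standard error 0.19), positive in 3 of 4 weeks. In total RNA it was -0.024 (standard error 0.16) and -0.21 (standard error 0.14). ICAM1 TE responses were 0.45 (standard error 0.17) and 0.30 (standard error 0.19). Without week 1 the RPF response to shEIF2B1 was 0.34, and without week 2 the TE response to shEIF2B1 was 0.70. In the levels, this response sat in the uninduced libraries. Uninduced shEIF2B1 lay 0.49 (standard error 0.076) below uninduced shCTRL, in 4 of 4 weeks, whereas induced shEIF2B1 differed from induced shCTRL by -0.058 (standard error 0.11). Uninduced shEIF2B4 lay lower by a difference of -0.42 (standard error 0.14) and, once induced, by one of -0.33 (standard error 0.10), lower in 3 of 4 weeks. Leaving out 1 week gave from -0.55 to -0.29 for the uninduced shEIF2B4 difference. Total ICAM1 RNA differed from shCTRL by -0.013 and 0.056 in the uninduced lines. Its log2 TE differed there by -0.47 and -0.48, lower in 4 of 4 weeks in both lines. Over all genes, 54.1% were called in RPFs of uninduced shEIF2B1 against uninduced shCTRL and 13.9% in those of shEIF2B4, and 1.4% and 2.32% in total RNA.

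The genes whose pattern over the 24 libraries was most like that of LCN2, after the mean of each week was removed, were LAMP3 (Pearson r 0.988), SLPI (0.984), SERPINE2 (0.980), PECR (0.978) and BEX2 (0.972) in RPFs. In total RNA they were BEX2 (0.991), SLPI (0.989), LAMP3 (0.986), CLGN (0.982) and MOCOS (0.980). The stress marker DDIT3 came at place 14 of 11144 in RPFs (0.962) and at place 9 of 11946 in total RNA (0.975). ICAM1 had an r of 0.147 with LCN2 in RPFs, at place 3480, and of 0.047 in total RNA, at place 5194. The libraries share 6 groups and 4 weeks, so each r mostly restates which groups are high.

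The gene lists behind the counts below were chosen with earlier results of these data known. Their counts are therefore a description and no test of a list, and are set beside the share of all genes called. In RPFs that share was 12% higher and 15.3% lower after shEIF2B1, and 1.88% higher and 0.87% lower after shEIF2B4. In total RNA it was 2.34% higher and 1.13% lower after shEIF2B1, and 3.78% higher and 1.62% lower after shEIF2B4. The calls also rest on the week block. Without it, 31 of the 35 RPF calls of listed genes after shEIF2B1 and 9 of 12 after shEIF2B4 were lost, as were 3 of 8 and 5 of 13 in total RNA. Leaving out the shCTRL correction lost 5 of the 35 and 1 of the 12 RPF calls, and 0 of 8 and 1 of 13 in total RNA. Among the calls kept, some responses moved by over 1.5 times. In RPFs after shEIF2B1 these were ITGB2 (1.28), CSF1 (0.63), TNFRSF1B (0.20), KHSRP (-0.76), JUND (0.41), PPP1R15A (0.71), MIF (0.31) and ICAM5 (0.77). After shEIF2B4 they were CDH1 in RPFs (1.83) and IL15 in total RNA (0.185).

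SLPI, a protease inhibitor of mucosal secretions, was the only one of 4 antimicrobial and acute-phase genes with a row, out of 24 listed, that rose. Its RPF response was 2.10 (standard error 0.18, limma adjusted p = 3.2e-07) to shEIF2B1 and 2.26 (standard error 0.22, limma adjusted p = 1.7e-05) to shEIF2B4, and its total RNA response was 1.43 and 1.62 (limma adjusted p = 1.8e-06 and 9e-07). Group means of log2 RPF for SLPI were 5.83 to 6.59 in uninduced groups and induced shCTRL, and 8.57 ± 0.23 and 8.89 ± 0.24 (SD, n = 4 each) in induced shEIF2B1 and shEIF2B4. Every alternative run kept these SLPI calls. SAA1 and SAA2, acute-phase apolipoproteins whose near-identical coding sequences may share reads, had RPF responses of -0.27 and -0.36 to shEIF2B1 and of -0.74 and -0.73 to shEIF2B4 (limma adjusted p from 0.193 to 0.560). NOS2, the inducible nitric oxide synthase, had -0.32 and -0.29 (limma adjusted p = 0.118 and 0.473).

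Of 33 other chemokines and cytokines listed, 8 had an RPF row, and 5 of them rose and none fell after shEIF2B1, where 12% of all genes were called higher, with a median response of 0.45 against -0.011 over all genes. After shEIF2B4, 2 of the 8 rose and none fell, where 1.88% of all genes were called higher, with a median of 0.18 against -0.017 over all genes. Before induction, 5 of the 8 were already called lower in RPFs of shEIF2B1 than of shCTRL, and 0 higher. Their median difference was -0.29 against 0.0024 over all genes, of which 54.1% were called in either direction. For uninduced shEIF2B4, 3 were lower and 0 higher (13.9% of all genes called). These starting differences enter the responses. IL23A, a subunit of an interleukin, rose by 0.99 (standard error 0.20, limma adjusted p = 0.00301) after shEIF2B1 and by 0.97 (standard error 0.22, limma adjusted p = 0.0291) after shEIF2B4. CX3CL1, the membrane-bound chemokine fractalkine, rose by 0.71 (standard error 0.24, limma adjusted p = 0.0425) and by 0.91 (standard error 0.26, limma adjusted p = 0.0913). MIF, a macrophage cytokine, rose by 0.59 (limma adjusted p = 0.00581) after shEIF2B1, as did CXCL16 (0.49, limma adjusted p = 0.0687) and the growth factor gene CSF1 (0.42, limma adjusted p = 0.0759). Leaving out 1 week kept the IL23A and MIF calls after shEIF2B1, and without the shCTRL correction the MIF value was 0.31. The call of CX3CL1 after shEIF2B1 was lost without week 1 or 3 (adjusted p = 0.343 and 0.126), that of IL23A after shEIF2B4 without week 3 or 4 (0.250 and 0.110), that of CX3CL1 after shEIF2B4 without week 2, 3 or 4 (0.168, 0.380 and 0.386), and those of CXCL16 and CSF1 without week 1, 3 or 4 (from 0.144 to 0.330).

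In total RNA, 11 of these genes had a row, and IL23A was the only one called after shEIF2B1 (0.28, standard error 0.081, limma adjusted p = 0.0884). After shEIF2B4, IL23A (0.32, limma adjusted p = 0.0461) and IL15 (0.31, limma adjusted p = 0.0960) rose and CXCL14, a chemokine of resting epithelium, fell (-0.60, standard error 0.14, limma adjusted p = 0.0245). The calls of IL23A after shEIF2B1 and of IL15 were lost without any 1 of the 4 weeks (adjusted p from 0.116 to 0.413 and from 0.112 to 0.345). That of IL23A after shEIF2B4 was lost without week 2, 3 or 4 (0.195, 0.126 and 0.266), and that of CXCL14 without week 4 (0.203). IL23A was expressed at a low level, with log2 total RNA means of 3.94 to 4.46.

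**Figure D4:**
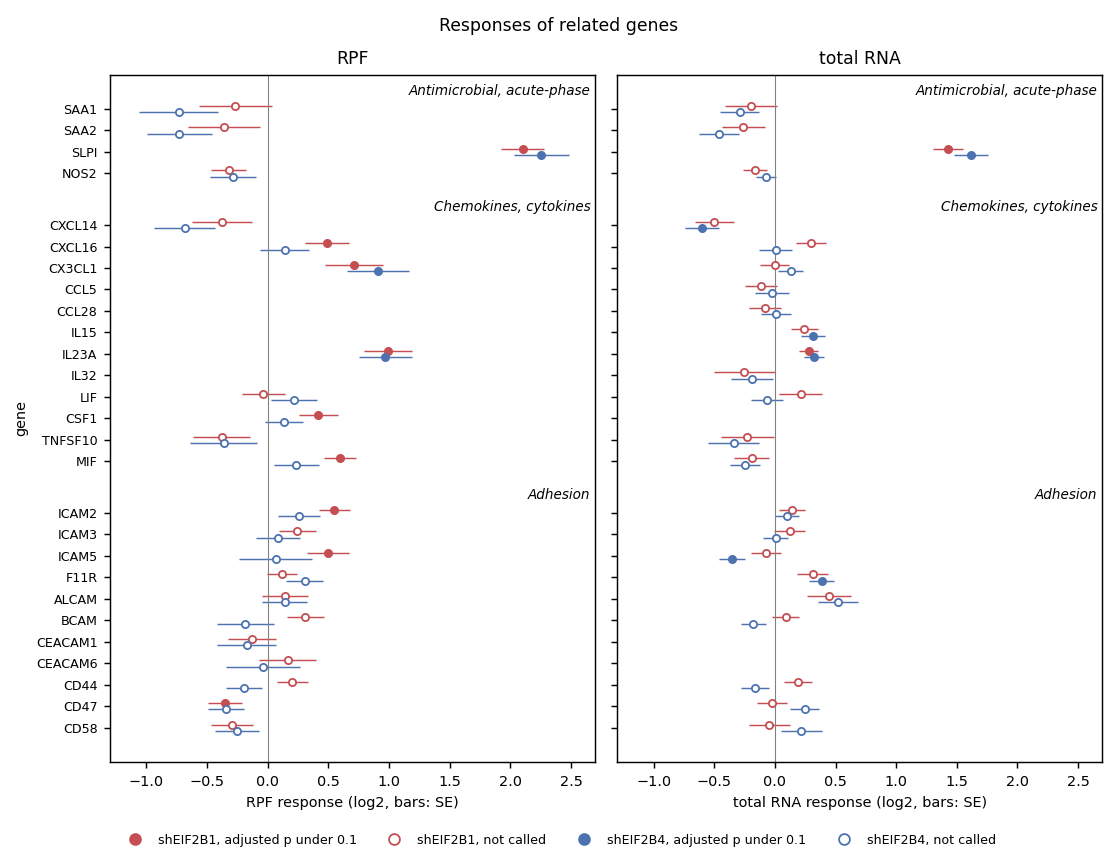
Responses in RPFs (left) and total RNA (right), in log2 with bars of 1 standard error, of the antimicrobial, chemokine and adhesion genes with a row, after shEIF2B1 (red) and shEIF2B4 (blue). Filled points passed the limma adjusted p of 0.1 and open ones did not. SLPI stands alone at 1.43 to 2.26, and no other gene shown reaches 1.

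Of 11 adhesion genes with an RPF row, 2 rose and 1 fell after shEIF2B1, where 12% and 15.3% of all genes did so, and none was called after shEIF2B4, where 1 had an unadjusted p under 0.05. ICAM2, a second LFA-1 ligand, rose by 0.55 (standard error 0.13, limma adjusted p = 0.00797) and kept its call without any 1 week. ICAM5 rose by 0.50 (limma adjusted p = 0.0549), a call lost without week 1, 3 or 4 (0.182, 0.145 and 0.260), with a value of 0.77 without the shCTRL correction. CD47, a receptor that restrains phagocytes, fell (-0.36, limma adjusted p = 0.0811), a call lost without any 1 of the 4 weeks (from 0.108 to 0.220). Without the shCTRL correction its value was -0.019 (limma adjusted p = 0.902). In total RNA none of 9 was called after shEIF2B1, where 2 had an unadjusted p under 0.05. After shEIF2B4, F11R, a tight junction protein, rose (0.39, limma adjusted p = 0.0553) and ICAM5 fell (-0.35, limma adjusted p = 0.0840). The F11R call was lost without week 1, 2 or 4 (0.166, 0.307 and 0.190) and that of ICAM5 without any 1 week (from 0.135 to 0.317), and without the shCTRL correction ICAM5 was at -0.042 (limma adjusted p = 0.709).

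Receptors and partners of the 7 genes had 4 RPF rows of 13 listed. ITGB2, the β2 chain of LFA-1, rose by 0.82 (standard error 0.24, limma adjusted p = 0.0224) and MSN, a protein that links ICAM1 to actin, fell (-0.49, standard error 0.16, limma adjusted p = 0.0398) after shEIF2B1. Neither was called after shEIF2B4 (-0.22 and 0.015), and none of the 4 had an unadjusted p under 0.05 there. In total RNA none of 4 was called after shEIF2B1 or shEIF2B4, where 2 and 1 had an unadjusted p under 0.05. The shEIF2B1 call of ITGB2 was lost without week 1 (0.101) and that of MSN without week 1 or 4 (0.121 and 0.146). ITGB2 stayed at the low end of the table, with log2 RPF means of 4.54 to 5.84. LRP2, an endocytic receptor that takes up lipocalin 2, had responses of 0.062 and -0.33 and was not called.

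Of 19 listed genes for NF-κB subunits, inhibitors and kinases, 15 had an RPF row. Their footprints and RNA are not a measure of NF-κB activity, which was not tested. After shEIF2B1 the inhibitor gene NFKBIA, itself an NF-κB target, rose (0.42, standard error 0.14, limma adjusted p = 0.0392) and the subunit gene REL fell (-0.45, standard error 0.17, limma adjusted p = 0.0768). The NFKBIA call was lost without week 1 or 3 (0.181 and 0.110) and that of REL without week 1, 3 or 4 (0.220, 0.135 and 0.226) and without the shCTRL correction (-0.19, limma adjusted p = 0.215). None was called after shEIF2B4 in RPFs, where 2 had an unadjusted p under 0.05, and none of 16 in total RNA after either knockdown, where 2 and 0 did. Of 21 cytokine and pattern receptor pathway genes, 3 rose in RPFs after shEIF2B1, against 12% of all genes, namely the cytokine receptor IL17RA (0.49, limma adjusted p = 0.0165), the TNF receptor TNFRSF1B (0.39, limma adjusted p = 0.0354) and the kinase IRAK1 (0.34, limma adjusted p = 0.0427). These calls were lost without week 4 for IL17RA (0.134) and without week 1 or 4 for TNFRSF1B (0.139 and 0.160) and IRAK1 (0.207 and 0.120), and without the shCTRL correction for IRAK1 (0.15, limma adjusted p = 0.228). None of the 21 was called after shEIF2B4 in RPFs, or in total RNA after either knockdown, where 1, 3 and 5 had an unadjusted p under 0.05.

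AP-1 and C/EBP factors can bind near NF-κB at inflammatory promoters. The list of these factors also held EGR1 and STAT3, which belong to neither family. In RPFs 7 of the 15 listed genes with a row rose after shEIF2B1, against 12% of all genes. After shEIF2B4 5 of the 15 rose, against 1.88%. EGR1 is among the genes counted as risen after each knockdown. So are ATF4 and DDIT3, which the study had already reported as induced by both knockdowns, so that part of each count was known beforehand. None fell, and the medians were 0.46 in both. Before induction, 6 of the 15 were already called lower and 1 higher in RPFs of shEIF2B1 than of shCTRL (54.1% of all genes called). For uninduced shEIF2B4, 3 were lower and 0 higher (13.9% of all genes called). DDIT3 rose by 1.49 and 1.73 (limma adjusted p = 6.1e-06 and 0.000396), CEBPB by 0.97 and 1.05 (limma adjusted p = 7.8e-05 and 0.0139), and ATF4 by 1.02 and 0.76 (limma adjusted p = 0.000223 and 0.0690). EGR1, an immediate early factor, rose by 1.08 (limma adjusted p = 0.0199) after shEIF2B4. In total RNA DDIT3, CEBPB and CEBPG were the 3 called after each knockdown, although CEBPB (without week 1, 3 or 4) and CEBPG (without week 1 or 4) lost their shEIF2B1 calls (adjusted p from 0.144 to 0.262). Leaving out 1 week kept the DDIT3 calls, and the shEIF2B4 call of CEBPB in RPFs was lost without week 2 or 4 (0.118 and 0.163), that of ATF4 without week 2, 3 or 4 (0.390, 0.194 and 0.348) and that of EGR1 without week 3 or 4 (0.132 and 0.104). After shEIF2B1, RPF calls were lost for CEBPA without week 1, 3 or 4 (0.193, 0.115 and 0.177) and for EGR1 without week 1 (0.430). Those of JUND without week 1 (0.131) and of JUNB without week 3 (0.155) were lost as well. JUNB was also called after shEIF2B4 in RPFs, a call lost without week 2, 3 or 4 (0.207, 0.284 and 0.311).

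Factors that bind or degrade mRNAs with AU-rich elements, the class to which chemokine mRNAs belong, had 15 RPF rows, of which 3 rose and 7 fell after shEIF2B1, against 12% and 15.3% of all genes, and 2 rose after shEIF2B4, against 1.88%. HNRNPD (AUF1) fell (-0.94, standard error 0.15, limma adjusted p = 0.0007) and so did the deadenylase CNOT7 (-0.67, limma adjusted p = 0.00152), whereas the decay factor ZFP36L1 rose (0.79, limma adjusted p = 0.00423). Leaving out 1 week kept these calls. Lost were the falls of PABPC1 (without week 4), KHSRP (1 or 4), TIA1 (1 or 3), TIAL1 (1, 3 or 4) and XRN1 (any 1 week). The rise of ZC3H12A was lost without week 1 or 2 (limma adjusted p from 0.109 to 0.390 for all of these). XRN1 was at -0.068 without the shCTRL correction (limma adjusted p = 0.692). After shEIF2B4, ZFP36L2 rose by 0.74 (limma adjusted p = 0.0262) and ZFP36L1 by 0.83 (limma adjusted p = 0.0900). Without the shCTRL correction ZFP36L2 was at 0.245 there (limma adjusted p = 0.150) and, after shEIF2B1, where it was also called, at 0.041 (limma adjusted p = 0.789). Both of these shEIF2B4 calls were lost without week 2, 3 or 4 (from 0.141 to 0.347 and from 0.189 to 0.465). None of the 15 was called in total RNA after either knockdown, where 1 and 0 had an unadjusted p under 0.05. Before induction, 8 of the 15 were already called higher and 3 lower in RPFs of shEIF2B1 than of shCTRL (54.1% of all genes called). The median of that difference was 0.29. For uninduced shEIF2B4, 0 were higher and 2 lower (13.9% of all genes called).

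The coding sequences of the 2 genes were not alike in length. That of LCN2 has 594 bases, longer than 15.7% of those of the 10840 matched RPF genes, and that of ICAM1 has 1596 bases, where the median was 1308. The GC content was 52.5% in LCN2, at the median of 52.5%, and 60.8% in ICAM1 (percentile 78.9). At the third codon positions it was 70.7% and 72.2%, against a median of 59.6%. The leader of LCN2 in GENCODE v29 has 73 bases and no upstream ATG, and that of ICAM1 has 325 bases and 1 upstream ATG, which 47.4% of leaders have at least once. These transcript versions differ from those in the deposited tables.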

How the data were processed

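RPF and total RNA libraries of 24 SW480 lysates were used. The deposited values are regularized log2 values, made by the authors with DESeq2 separately for each assay. Reads had been trimmed with cutadapt 1.18 and aligned with bowtie2 to transcripts of GENCODE v38, total RNA was quantified with RSEM, RPFs were counted over coding sequences, and the most expressed transcript of each gene was kept. SAMtools 1.9 and R 4.3.1 are in the submitters' processing notes. Replicate 3 had been joined from 2 runs. No counts were used here, so the depth is unknown, no interval for counting error can be given, and shrinkage understates fold changes of weakly expressed genes.

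Groups followed the labels. limma 3.58.1 (R 4.3.3) was fitted across all genes of an assay, with week as a block, shRNA, DOX and their interaction, over the 16 libraries of a knockdown line and shCTRL, with a mean-variance trend and two-sided Benjamini-Hochberg adjusted p-values called under 0.1. The difference between knockdowns used 24 libraries, and the shCTRL and uninduced comparisons used 8. The block follows the batch term of the model formula given with the study's result tables. The labels number the replicates and say that the experiment was run in separate weeks, and that a number marks the same week in all lines is an inference. Libraries of the same number deviated together in 52 of 60 pairs of groups for RPFs and 37 of 60 for total RNA (correlation over 0.1). On simulated data of the RPF response to shEIF2B1 over 11145 genes, 93 of 100 changes of 1 log2 unit and 100 of 100 of 2 units were recovered with 19 false calls.

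The members and gene lists were chosen with earlier results of these data known. Named were the members, up to 3 called genes per list with the largest response in 4 of 4 weeks, the 5 genes most like LCN2 in each assay, the 3 with the largest RPF response beside LCN2, and the targeted genes and stress markers. Other list genes were named after their values were seen, to account for small counts. Alternatives left out each week, the block, the mean-variance trend, the shCTRL correction or the lowest 25% of genes, fitted all 24 libraries, centred libraries on their median, or used a threshold of 0.05. Sequences and lengths came from RefSeq (GRCh38.p14) and GENCODE v29, matched by transcript for 97.3% of RPF genes. Figures were drawn with Python 3.11.15 and matplotlib 3.10.9.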

Additional observations from a re-analysis of the deposited data

Results flagged for a closer look

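Of 36 combinations of gene, measure and group, 4 held a library far from the other 3 by Dixon's test at the 95% level, which chance gives in about 1 of 20. ICAM1 in uninduced shEIF2B4 was highest in week 1, at 10.52 in RPFs, 8.148 in total RNA and 2.375 in log2 TE. LCN2 total RNA in uninduced shCTRL was highest in week 3, at 5.892. The lowest values of the same groups were 9.61, 7.94, 1.67 and 5.69.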

How the results depend on the processing

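Calls of LCN2 and ICAM1 rest on values that chose these genes and are given here only to show what each setting moves. The RPF and total RNA responses of LCN2 kept their direction and their side of the threshold under every alternative run. They ranged over 3.65 to 4.50 (shEIF2B1) and 4.04 to 4.81 (shEIF2B4) for RPFs, and 2.58 to 3.11 and 3.19 to 3.66 for total RNA. For the results below the cause of the change was not tested.

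Without the replicate block (the pairing by week), values stayed as they were but calls were lost for ICAM1 in the RPF response to shEIF2B1 (0.43, leaving 1 of the 2 genes called), LCN2 in the TE response to shEIF2B1 (1.11), LCN2 in the RPF change of shCTRL (0.62), LCN2 and ICAM1 in RPFs of uninduced shEIF2B1 (-0.23 and -0.49) and ICAM1 in RPFs of uninduced shEIF2B4 (-0.42), leaving 0 called in each of the last 4 comparisons. With all 24 libraries in one fit the ICAM1 RPF response to shEIF2B1 (0.43) was not called, leaving 1. Without the shCTRL correction ICAM1 total RNA after shEIF2B1 was 0.12, of opposite sign, and the LCN2 TE response to shEIF2B4 was 1.15 and called (1 gene). A threshold of 0.05 ended the calls of LCN2 in shCTRL RPFs (0.62, leaving 0), LCN2 in RPFs of uninduced shEIF2B1 (-0.23, leaving 1) and ICAM1 in RPFs of uninduced shEIF2B4 (-0.42, leaving 0). Without the trend the LCN2 change in shCTRL RPFs (0.62) was not called, leaving 0. Centring on the median gave 0.59 for it and -0.33 for ICAM1 in RPFs of uninduced shEIF2B4, neither called (0 left in each), and 0.0025 for LCN2 total RNA in uninduced shEIF2B1, of opposite sign. Leaving out the lowest 25% of genes ended the ICAM1 call in uninduced shEIF2B4 (-0.42, 0 left). Induced libraries alone, chosen after seeing the data, turned the ICAM1 RPF responses to -0.058 and -0.33.

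Leaving out 1 week at a time gave these ranges, with 0 to 2 genes called. For the responses to shEIF2B1, ICAM1 ran from 0.34 to 0.49 in RPFs (1 to 2 called), from -0.24 to 0.12 in total RNA and from 0.33 to 0.70 in TE, and LCN2 from 1.02 to 1.23 in TE (0 to 2 called). LCN2 ran from 0.73 to 1.01 in the TE response to shEIF2B4 (0 to 1 called). On induction of shCTRL, LCN2 ran from 0.41 to 0.96 in RPFs (0 to 1 called) and from 0.21 to 0.46 in total RNA (0 to 1), and ICAM1 from -0.079 to 0.085 in RPFs. In uninduced shEIF2B1, LCN2 ran from -0.33 to -0.17 in RPFs (1 to 2 called) and from -0.072 to 0.089 in total RNA, and ICAM1 from -0.11 to 0.079 in total RNA. In uninduced shEIF2B4, ICAM1 ran from -0.55 to -0.29 in RPFs (0 to 1 called) and from -0.0031 to 0.13 in total RNA, and LCN2 from -0.11 to 0.091 (RPFs) and -0.0079 to 0.19 (total RNA). Depth is unknown and sets no stated limit here.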
